A study of Mus musculus with 12 samples.

Results

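The peaks described here lie next to the centromeric ends of mouse chromosomes 1 to 19. A peak is a stretch of the genome where the authors' peak caller found more signal for a histone mark than its background. Every deposited peak whose midpoint falls between 3000000 and 6000000 bp of build GRCm39 was taken, which gave 10368 of the 336278 peaks in 12 lists. They comprise 2228 peaks of H3K4me3, 3204 of H3K27ac and 4936 of H3K9me3, the 3 histone modifications profiled. The remaining 307310 peaks on chromosomes 1 to 19 lie beyond 6 Mb and serve as the comparison, called the rest. No peak was listed below 3 Mb on these chromosomes.

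The study used E14TG2a cells, a mouse embryonic stem cell line, cultured with fetal bovine serum, LIF, PD0325901 and CHIR99021. One group was wild type (WT), and the other, labelled Alkbh5 del-cIDR, carried a deletion in the gene for ALKBH5, an enzyme that removes the m6A methyl mark from RNA. From the series title, cIDR is read here as an intrinsically disordered region of that protein. CUT&Tag was used for H3K4me3 and H3K27ac, and CUT&RUN for H3K9me3. In both methods an enzyme tethered by an antibody tags or cuts the chromatin around a mark. Each mark had 2 libraries per genotype, and the labels do not say whether these came from separate cultures or clones, so the p-values measure library-to-library spread that may be technical only.

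As background, mouse chromosomes are acrocentric, with the centromere close to one end. Centromeric and pericentromeric DNA consists of long arrays of satellite repeats that the reference assembly largely leaves as a gap, and the assembled sequence starts beyond it. H3K9me3 is a mark of constitutive heterochromatin and is known to cover pericentromeric satellites and many transposable elements. H3K4me3 marks the start sites of active genes, and H3K27ac marks active promoters and enhancers. Peaks were not assigned to genes, because no gene table of build GRCm39 was used here. For the same reason the identity of the cells was not checked against marker genes.

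The lists differed in length. On chromosomes 1 to 19 the H3K4me3 lists held 18367 to 19242 peaks and the H3K27ac lists 22810 to 32353. The H3K9me3 lists held 20895 peaks in WT replicate 1 and 34154 to 41183 in the other 3 libraries, so WT replicate 1 stands apart for this mark. Read depth is unknown, since the lists hold no read counts, and list length sets the level of every density below. Densities were therefore compared within a library, as the ratio of the first 3 Mb to the rest. Such a paired exact sign-flip test over 4 libraries cannot give a two-sided p below 0.125, and the exact permutation test of 2 libraries against 2 cannot go below 0.333, so no single comparison here can pass 0.05.

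H3K9me3 peaks were packed more densely next to the centromeric ends than in the rest of the same chromosomes. WT replicate 1 had 739 peaks in the first 3 Mb of the 19 chromosomes, WT replicate 2 had 1523, del-cIDR replicate 1 had 1279 and del-cIDR replicate 2 had 1395. These are 13.0, 26.7, 22.4 and 24.5 peaks per Mb, against 8.59, 16.9, 14.0 and 15.5 peaks per Mb in the rest. The density was higher at the centromeric end in 4 of 4 libraries, by 1.51 to 1.60 times. The mean was 21.6 ± 6.05 peaks per Mb against 13.8 ± 3.64 (SD, n = 4), a log2 ratio of 0.65 ± 0.037 (exact sign-flip test, two-sided, p = 0.125). The bases under peaks per Mb were higher too, by 1.41 to 1.58 times. Without WT replicate 1 the log2 density ratio was 0.67.

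**Figure D1:**
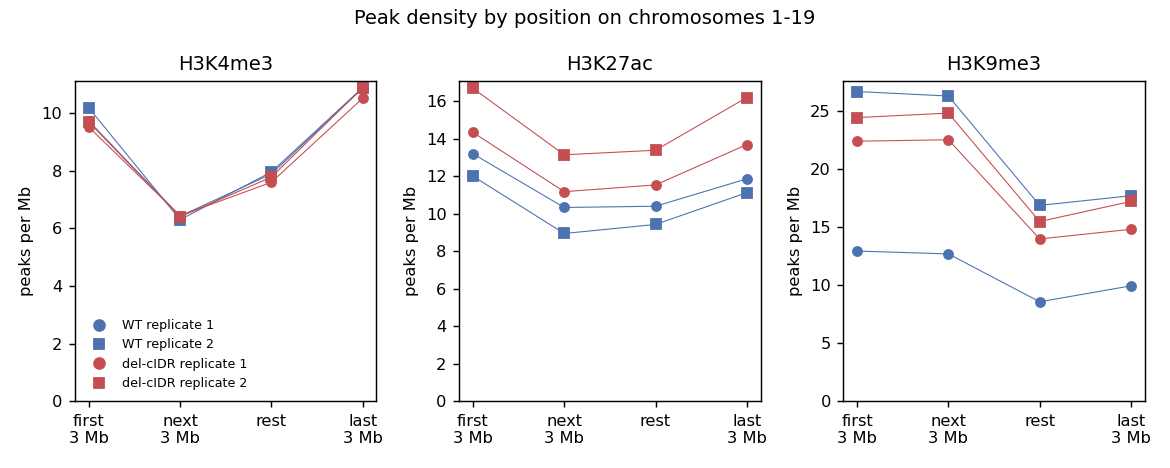
Peaks per Mb (y axis) in the first 3 Mb, the next 3 Mb, the rest and the last 3 Mb of chromosomes 1 to 19, by mark. Each line is 1 library, coloured by genotype with a symbol for the replicate. H3K9me3 stays high over the next 3 Mb, where H3K4me3 drops from a mean of 9.77 peaks per Mb to between 6.30 and 6.44.

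The H3K9me3 excess did not end at 6 Mb. The first 3 Mb were 0.98 to 1.02 times as dense as the stretch from 6 to 9 Mb, higher in 2 of 4 libraries and lower in the other 2 (exact sign-flip p = 0.875). In steps of 1 Mb, the mean over the 4 libraries stood at 1.85 times the rest between 3 and 4 Mb. It was 1.47 in the following Mb and 1.38 in the one after. It stood at 1.68 from 7 to 8 Mb, at 1.77 from 19 to 20 Mb and at 0.96 from 24 to 25 Mb. The first Mb had the highest mean of the 30 steps examined, with a range of 1.79 to 1.88 over the libraries. Against the last 3 Mb of the chromosomes, at the other end, the first 3 Mb were 1.30 to 1.51 times denser (log2 0.52 ± 0.10, n = 4, higher in 4 of 4, exact sign-flip p = 0.125).

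**Figure D2:**
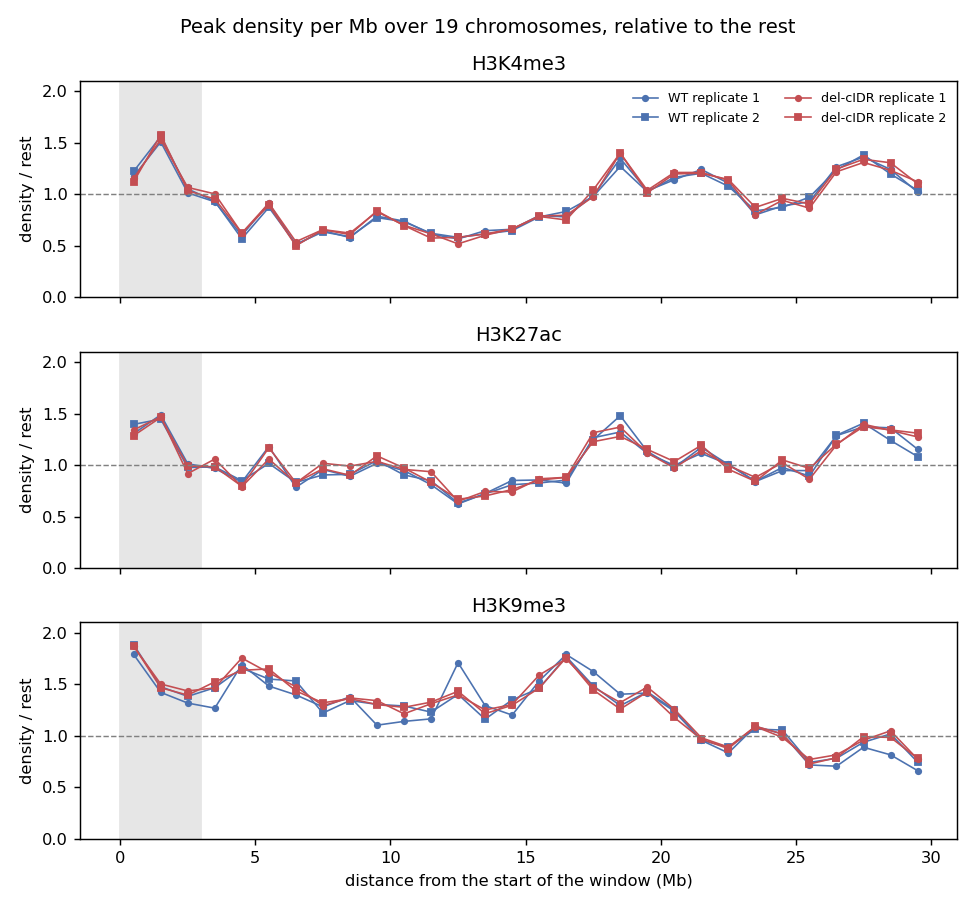
Peak density in steps of 1 Mb, relative to the rest of chromosomes 1 to 19 (y axis, ratio), against distance from the start of the window in Mb (x axis). Each line is 1 library and the grey band marks the first 3 Mb. H3K9me3 begins at 1.79 to 1.88 times the rest and stays above 1 for about 20 Mb, while H3K4me3 peaks at 1.51 to 1.58 in its second step and has a mean below 1 from 6 to 21 Mb.

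Within the first Mb, taken in steps of 100 kb, each of the first 3 steps held more H3K9me3 peaks than any later step in 4 of 4 libraries. The first 100 kb held 62, 88, 75 and 73 H3K9me3 peaks in the order WT replicate 1, WT replicate 2, del-cIDR replicate 1 and del-cIDR replicate 2, on 17 to 19 of the chromosomes. The next 100 kb held 46, 108, 83 and 94, more than the first in all libraries but WT replicate 1. The first 100 kb held 3 to 6 H3K4me3 peaks and 6 to 11 H3K27ac peaks per library. On 16 of the 19 chromosomes the first base under any peak came more than 50 kb into the window, and chromosomes 3, 9 and 18 were the other 3. The counts per step were not adjusted for this, so the first step may be understated. Without the first 100 kb the H3K9me3 density stayed above the rest (log2 0.60, exact sign-flip p = 0.125).

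Strong H3K9me3 peaks were more concentrated in the first 3 Mb than all H3K9me3 peaks were. Of the H3K9me3 peaks with a −log10 q of at least 5, 40, 45, 37 and 51 lay in the first 3 Mb, in the same order of libraries. Their density was 5.04, 2.57, 2.31 and 2.27 times that of strong peaks in the rest. Among these, 22 to 24 per library lay in the first 100 kb, and 10 to 13 lay in the first 50 kb of chromosome 9. These strong peaks were short, with medians of 227 to 277 bp, against 204 to 256 bp for strong peaks in the rest. All H3K9me3 peaks of the first 3 Mb had medians of 341 to 709 bp. How the q-value of an H3K9me3 peak was formed over its length is not given in the sources used here. Its part in the width of strong peaks was not tested.

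The first kilobases of chromosome 9 carried a cluster that recurred in all libraries. H3K9me3 had 13, 12, 10 and 11 peaks there, ending about 38.3 kb from the start of the window and covering 8344 to 9152 bp. At the mean density of the rest, 50 kb would hold 0.43 to 0.85 peaks. The region with the most bases under peaks in this cluster, chr9:3023423-3025982, had fold enrichments of 6.96, 6.35, 6.36 and 6.24 in the 4 libraries. Fold enrichment is the authors' own value for each peak over the background in its library. H3K9me3 differed from the other marks in method and in the type of peak called, so folds cannot be compared between H3K9me3 and the other marks. Inside it lay a 607 bp H3K4me3 region, chr9:3024048-3024654, with folds of 17.7, 15.9, 15.8 and 13.1. H3K27ac peaked in the same place, at chr9:3024033-3024654, with folds of 20.1, 21.8, 18.1 and 20.5, and these peaks ranked between 6 and 9 by fold in their lists. All 12 libraries thus had a peak in this place, and the marks of active and silent chromatin overlapped there. A second H3K27ac region, chr9:3000343-3000653, had folds of 13.2, 13.8, 11.8 and 13.6 and overlapped the wide H3K9me3 region chr9:3000019-3002314 in all 4 libraries, with no H3K4me3 peak. How uniquely reads map in this stretch is not given in the sources used here, and its part in these peaks was not tested.

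**Figure D3:**
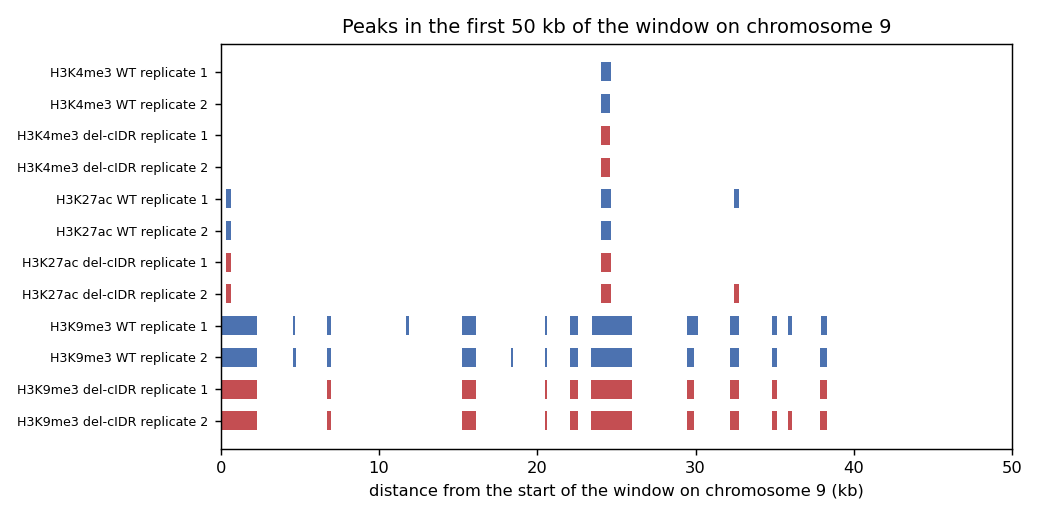
Peaks in the first 50 kb of the window on chromosome 9, drawn to scale as distance from its start in kb (x axis), with 1 row per library (y axis) and bars coloured by genotype. The H3K9me3 libraries have 10 to 13 peaks each, and the 12 libraries share a peak near 24 kb.

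The strongest H3K9me3 peak was a single short one. At chr12:3159872-3160121, 250 bp long with the same bounds in all 4 lists, the fold was 42.3, 39.0, 39.3 and 36.5. It ranked first by fold in 3 of the lists and second in del-cIDR replicate 2. Neither H3K4me3 nor H3K27ac had a peak there in any library. The next regions in the ranking by mean percentile of fold were chr9:3006686-3006950, with folds of 16.5, 15.0, 15.5 and 14.5, and chr9:3015238-3016141, with folds of 9.74, 10.6, 10.0 and 9.05. At chr11:3053915-3054090 the folds were 10.9, 9.01, 9.22 and 9.53. The genotypes overlapped in fold at each of these 4 regions. By bases covered, chr14:3050301-3053969 led, with 3075, 2600, 2597 and 3188 bp under H3K9me3 peaks. How uniquely reads map at the regions named here is likewise not given in the sources used, and its part was not tested.

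H3K4me3 and H3K27ac peaks were also denser in the first 3 Mb than in the rest when the 19 chromosomes were pooled, and chromosomes 7, 11 and 19 held a large part of these peaks. H3K4me3 had 554, 580, 542 and 552 peaks, and its density was 9.77 ± 0.284 peaks per Mb against 7.80 ± 0.156 (SD, n = 4; log2 0.32, higher in 4 of 4, exact sign-flip p = 0.125). H3K27ac had 752, 684, 817 and 951 peaks, and its density was 14.1 ± 2.00 against 11.2 ± 1.70 peaks per Mb (log2 0.33, higher in 4 of 4, exact sign-flip p = 0.125). Chromosomes 7, 11 and 19 alone held 44.7% to 45.9% of the H3K4me3 peaks of the first 3 Mb and 32.7% to 35.8% of the H3K27ac peaks. They held 9.38% to 10.3% of the H3K9me3 peaks. Without these 3 chromosomes, left out after their values were seen, H3K4me3 was below the rest (log2 -0.22), and H3K27ac was near it (log2 0.045). As the median over the 19 chromosomes, also added after the data were seen, the log2 ratio was -0.25 for H3K4me3 and 0.16 for H3K27ac. H3K9me3 was further above the rest in both settings, at log2 0.72 without the 3 chromosomes and 0.75 as the median over chromosomes.

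For H3K4me3 the other end of the chromosome was richer. The density in the first 3 Mb was 0.89 to 0.94 times that in the last 3 Mb (log2 -0.14 ± 0.032, lower in 4 of 4, exact sign-flip p = 0.125). It was 1.48 to 1.62 times that in the next 3 Mb. H3K27ac was 1.03 to 1.11 times as dense in the first 3 Mb as in the last 3 Mb and 1.27 to 1.34 times as dense as in the next 3 Mb, higher in 4 of 4 libraries each time (exact sign-flip p = 0.125).

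The chromosomes differed widely. Chromosome 19 had the highest density of H3K4me3 peaks, with 104, 108, 104 and 106 peaks in its first 3 Mb, followed by chromosome 11 with 74 to 78 and chromosome 7 with 67 to 73. Chromosome 3 had the lowest, with 4, 5, 3 and 3 H3K4me3 peaks, and chromosomes 14 and 9 followed with 8 to 11 and 10 to 12. H3K27ac had the same 3 chromosomes at the top, with 86 to 124 peaks on chromosome 19, 88 to 109 on chromosome 11 and 69 to 83 on chromosome 7. Its lowest were chromosome 3 with 4 to 5, chromosome 1 with 10 to 20 and chromosome 15 with 14 to 22. By mean density, H3K9me3 was highest on chromosome 9, with 49, 135, 120 and 121 peaks, on chromosome 8, with 78, 125, 110 and 108, and on chromosome 3, with 50, 116, 94 and 115. That order depends on list length, since by mean share of each list chromosome 8 (0.321%) stood above chromosome 9 (0.308%), and in WT replicate 1 chromosome 8 had more peaks than chromosome 9. Chromosome 17 had the fewest H3K9me3 peaks, at 11, 20, 12 and 26, and chromosomes 11 and 19 had 22 to 38 and 18 to 44. In the RefSeq table of the older build GRCm38.p6, the first protein-coding genes of chromosome 19 are Ighmbp2, Mrpl21 and Cpt1a, and those of chromosome 3 are Hnf4g, Zfhx4 and Pex2. These genes are named only as neighbours of each other in that table.

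**Figure D4:**
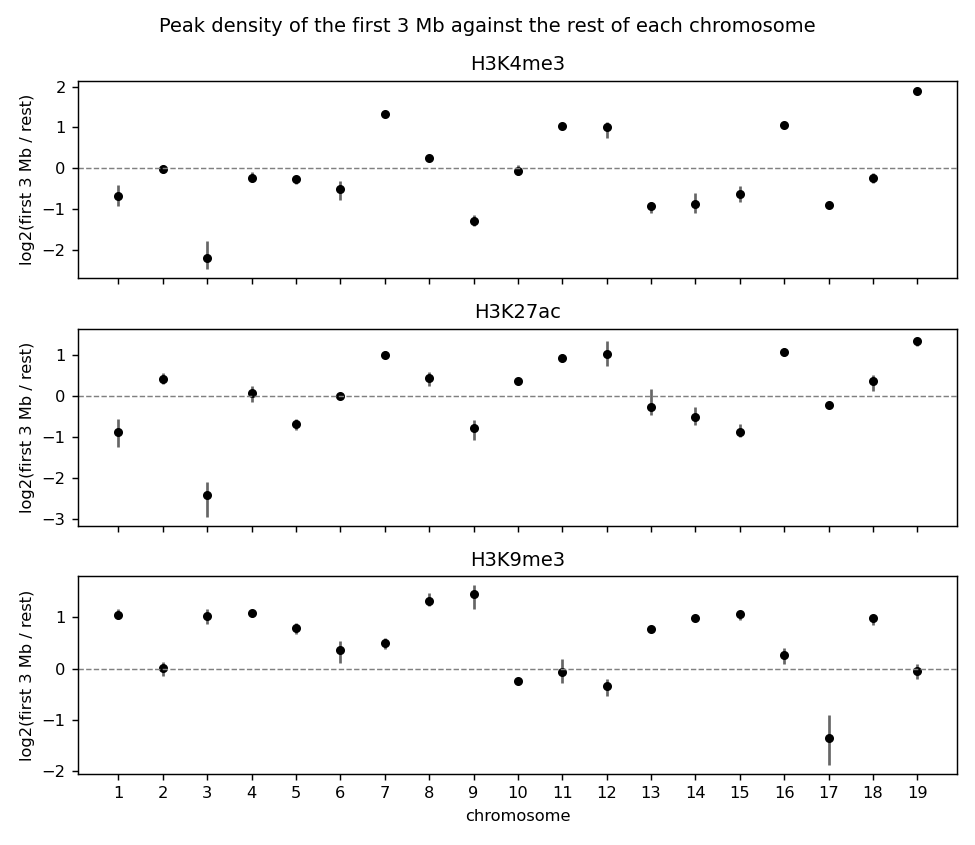
Log2 ratio of peak density in the first 3 Mb over the rest of the same chromosome (y axis) for chromosomes 1 to 19 (x axis), by mark. Points are means of 4 libraries, bars run from the lowest to the highest library and the dashed line marks equal density. H3K4me3 is highest on chromosome 19 at 1.89 and lowest on chromosome 3 at -2.21, where H3K9me3 stands at 1.02.

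Against the rest of its own chromosome, H3K9me3 was denser at the centromeric end in all 4 libraries on 13 of the 19 chromosomes and less dense in all 4 on 3, chromosomes 10, 12 and 17. H3K27ac was denser in all 4 on 9 and less dense on 7. H3K4me3 was denser in all 4 on 6, chromosomes 7, 8, 11, 12, 16 and 19, and less dense on 11. The genome was also divided into 792 windows of 3 Mb, and the 80 densest, 10.1%, were marked for each mark. Of the 19 first windows, 10 were among the 80 for H3K9me3, 3 for H3K4me3 and 3 for H3K27ac. The 10 were on chromosomes 1, 3, 4, 5, 8, 9, 13, 14, 15 and 18, and the 3 were on chromosomes 7, 11 and 19 for both other marks. The first windows had a median percentile of 93.0 for H3K9me3, 56.0 for H3K4me3 and 62.7 for H3K27ac.

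Across the 19 first windows, the density of H3K4me3 went with that of H3K27ac (Pearson's r = 0.94, Spearman's rho = 0.93) and ran against that of H3K9me3 (r = -0.51, rho = -0.62). H3K27ac also ran against H3K9me3 (r = -0.61, rho = -0.63). Over all 792 windows the last 2 relations were r = -0.23 and r = -0.18, and H3K4me3 with H3K27ac was r = 0.92. These are descriptions over chromosomes or windows, which share libraries, base composition and gene content.

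Peaks were about as wide at the centromeric ends as elsewhere. The median H3K4me3 peak was 977 ± 13.7 bp wide in the first 3 Mb and 975 ± 9.14 bp in the rest (SD, n = 4; exact sign-flip p = 0.5). The median H3K27ac peak was 572 ± 29.5 bp against 570.5 ± 20.5 bp (exact sign-flip p = 0.875). H3K9me3 peaks were slightly narrower in 4 of 4 libraries, with medians of 341, 570, 597 and 709 bp against 370, 580.5, 605 and 744 bp in the rest (log2 -0.058 ± 0.046, exact sign-flip p = 0.125). The direction turned when only strong peaks (−log10 q from 5) were kept, of which those of the first 3 Mb were wider (log2 0.16). The share of peaks of at least 2000 bp was 4.69% to 6.16% for H3K4me3 in the first 3 Mb, against 3.76% to 4.61% in the rest. For H3K27ac it was lower in the first 3 Mb in 4 of 4 libraries, at 0.439% to 0.665% against 0.574% to 1.09%, and for H3K9me3 in 3 of 4, with WT replicate 1 the other way.

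**Figure D5:**
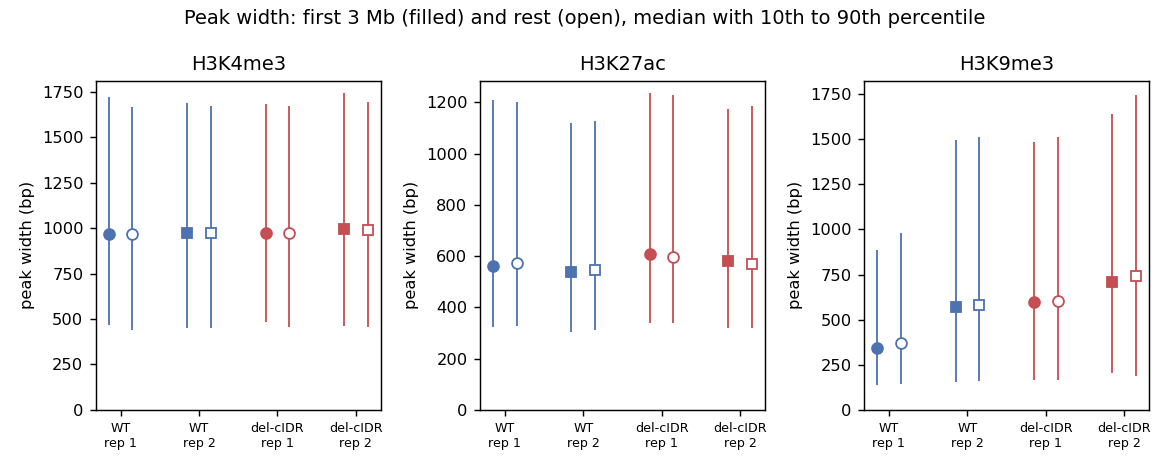
Peak width in bp (y axis) for each library (x axis), by mark. Symbols are medians, filled for the first 3 Mb and open for the rest, and bars run from the 10th to the 90th percentile of peaks. Filled and open symbols of a library lie close together, while the H3K9me3 medians differ between libraries, from 341 to 709 bp.

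Between genotypes, the share of each list that lay in the first 3 Mb differed little. For H3K4me3 it was 2.91% and 3.01% in the WT libraries and 2.95% and 2.94% in the del-cIDR libraries, which fall between the WT values (exact permutation p = 1). For H3K27ac it was 2.99% and 3.00% in WT and 2.93% and 2.94% in del-cIDR, which do not overlap, a log2 difference of -0.029 (exact permutation p = 0.333, the smallest possible). That direction turned among strong peaks (log2 0.082) and with lists of equal length (log2 0.020). For H3K9me3 it was 3.54% and 3.70% in WT and 3.74% and 3.69% in del-cIDR, which overlap (log2 0.040, exact permutation p = 0.667). Among strong H3K9me3 peaks the share was 10.9% and 5.87% in WT and 5.31% and 5.23% in del-cIDR, a log2 difference of -0.60 in which WT replicate 1 stands apart.

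H3K27ac peaks of the first 3 Mb were more numerous in del-cIDR than in WT, at 884 ± 94.8 against 718 ± 48.1 (SD, n = 2 each; exact permutation p = 0.333). The H3K27ac lists were also longer as a whole in del-cIDR. H3K27ac peaks of the first 3 Mb were also wider in del-cIDR, at 594 ± 21.2 bp against 550 ± 14.8 bp (log2 0.11, exact permutation p = 0.333). The rest gave 582 ± 18.4 and 559 ± 19.8 bp. This log2 difference in width was near 0 among peaks with a −log10 q of at least 5, at 0.0052. With lists of equal length it was 0.24. H3K9me3 medians in the first 3 Mb were 455.5 ± 162 bp for WT and 653 ± 79.2 bp for del-cIDR (log2 0.56, exact permutation p = 0.333). The rest of the chromosomes gave 475 ± 149 and 674.5 ± 98.3 bp, and without WT replicate 1 the log2 difference in the first 3 Mb was 0.19. H3K4me3 widths overlapped between genotypes (984.5 ± 17.7 and 970 ± 6.36 bp, exact permutation p = 0.667).

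By 3-Mb window, a share that was higher in both del-cIDR libraries than in both WT libraries occurred in 24.9% of all windows for H3K4me3, and a lower one in 22.2%. Of the 19 first windows 2 were higher, on chromosomes 2 and 19, and 5 were lower, on chromosomes 3, 5, 8, 9 and 13. For H3K27ac the background was 22.2% higher and 21.5% lower, and the first windows had 2 higher, on chromosomes 12 and 15, and 5 lower, on chromosomes 3, 6, 7, 8 and 9. For H3K9me3 the background was 20.7% and 16.7%, and the first windows had 4 higher, on chromosomes 5, 6, 13 and 19, and 2 lower, on chromosomes 1 and 11. As percentages of the 19, these are 10.5% higher and 26.3% lower for H3K4me3 and for H3K27ac, and 21.1% higher and 10.5% lower for H3K9me3. A share of the whole list also moves when a whole chromosome does, so the first 3 Mb were set against the rest of the same chromosome too. That ratio was higher in both del-cIDR libraries on 2 chromosomes for each mark, and lower on 6 for H3K4me3, 4 for H3K27ac and 2 for H3K9me3. Over all 792 windows, each set against the rest of its chromosome, 20.3%, 20.7% and 17.9% were higher and 21.3%, 21.2% and 15.8% were lower for H3K4me3, H3K27ac and H3K9me3, against 10.5% higher for each mark and 31.6%, 21.1% and 10.5% lower among the 19. The chromosomes that H3K4me3 and H3K27ac had in common were picked out after their values were seen. On chromosome 12 it was higher for H3K4me3 (difference in log2 0.20) and for H3K27ac (0.52). Its first 3 Mb had 50 and 40 H3K27ac peaks in WT and 61 and 75 in del-cIDR, whose lists were longer. As a share of each list they differed by log2 0.27. Not adjusted for list length, the rest of chromosome 12 had 9.38 and 7.97 H3K27ac peaks per Mb in WT. The del-cIDR libraries had 8.47 and 9.85, which overlap with WT. Relative to list length the rest of chromosome 12 was lower in del-cIDR on average. The ratio thus differed by log2 0.52 where the share differed by 0.27. For H3K4me3 the first 3 Mb had 32 and 39 peaks in WT and 37 and 37 in del-cIDR, which overlap. The rest of chromosome 12 was less dense for H3K4me3 in del-cIDR (5.67 and 5.83 peaks per Mb, also not adjusted) than in WT (6.36 and 6.25). On chromosomes 3, 7 and 9 the ratio to the rest was lower for both marks, with differences from -0.55 to -0.025. On chromosome 3 this rests on 3 to 5 peaks per library.

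Within a mark, peaks sharing 1 bp or more across the 4 libraries were joined into regions. Of 640 H3K4me3 regions in the first 3 Mb, 481 (75.2%) were present in all 4 libraries, against 68.2% of all H3K4me3 regions. For H3K27ac 411 of 1405 (29.3%) were, against 26.7%, and for H3K9me3 479 of 2164 (22.1%), against 24.7%. The overlap in bases between 2 lists of a mark, given as the Jaccard index (intersection over union), was 78.6% to 81.1% for H3K4me3 in the first 3 Mb and 41.7% to 50.8% for H3K27ac. For H3K9me3 it was 18.4% between the WT libraries and 39.2% between the del-cIDR libraries. WT replicate 2 overlapped del-cIDR replicates 1 and 2 by 37.0% and 40.2%. For WT replicate 1 these values were 19.5% and 18.4%. Comparing genotypes at single H3K9me3 regions is thus limited by the spread between the WT libraries, of which replicate 1 stands apart.

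Regions found in both libraries of a genotype and neither of the other were few, and their shares lay near or below those of the genome. For H3K4me3, 7 (1.09%) were present only in del-cIDR, against 2.01% of all regions, and 13 (2.03%) only in WT, against 2.88%. For H3K27ac, 76 (5.41%) were present only in del-cIDR, against 6.22%, and 27 (1.92%) only in WT, against 1.86%. For H3K9me3, 86 (3.97%) were present only in del-cIDR, against 4.12%, and 17 (0.786%) only in WT, against 0.996%. Leaving out 1 library loosens the rule, and the counts only in WT were then 24 to 42, 41 to 158 and 37 to 399 for H3K4me3, H3K27ac and H3K9me3. Those only in del-cIDR were 13 to 28, 122 to 324 and 107 to 423. The shares over all regions under this looser rule were not calculated, so these counts cannot be read against the genome. Under the full rule, the H3K4me3 region with the highest fold percentile was chr1:3124672-3125410. It had folds of 14.8 and 12.4 in the WT libraries and no peak in either del-cIDR library. It stood at a mean fold percentile of 88.7, and H3K9me3 peaks overlapped it in 3 libraries. The next WT region, chr10:5144478-5145013, had folds of 9.78 and 7.33. In del-cIDR the first H3K4me3 region was chr2:4526516-4527253, with folds of 6.39 and 5.97. The first H3K27ac region in del-cIDR was chr7:3459610-3460067, with folds of 6.59 and 7.18, where all 4 H3K4me3 libraries had a peak. In WT it was chr6:5707782-5708415, with folds of 6.80 and 5.69. For H3K9me3 the first in del-cIDR was chr7:4196574-4196768, with folds of 5.72 and 5.64, and in WT chr11:3091255-3091477, with folds of 7.79 and 4.67. When peaks needed a −log10 q of at least 5, 7 of the 8 H3K4me3 regions picked by fold percentile were still called, 5 of the 8 H3K27ac regions and 0 of the 8 H3K9me3 regions, the pair just named included.

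Active and heterochromatic marks shared few places. Of the 481 H3K4me3 regions present in all 4 libraries, 226 (47.0%) overlapped an H3K27ac region present in all 4, against 41.7% in the rest. Only 5 (1.04%) overlapped an H3K9me3 region present in all 4, against 0.305% in the rest. With regions present in at least 1 library the order turned, at 14 of 640 (2.19%) against 3.03% in the rest. All 3 marks met in all 12 libraries at 3 places in the first 3 Mb and at 21 in the rest, 0.624% and 0.139% of H3K4me3 regions. Besides the place on chromosome 9, these were chr11:3142715-3143735, with H3K4me3 folds of 16.5, 15.5, 17.7 and 17.2, and chr3:5925399-5925886. The latter had H3K27ac folds from 17.2 to 19.5 and H3K4me3 folds of 11.9, 11.4, 11.8 and 12.4. H3K9me3 folds were 2.06 to 2.78 at the place on chromosome 11 and 4.97 to 6.35 at that on chromosome 3. A further H3K4me3 region, chr3:4227315-4228044, with folds of 17.1, 16.5, 19.8 and 22.9, overlapped H3K9me3 peaks in 4 libraries and H3K27ac in 1.

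Most strong H3K4me3 regions of the first 3 Mb had no H3K9me3. The region with the highest mean percentile of fold was chr9:3198830-3199744, with folds of 17.1, 16.8, 19.9 and 19.03. It had no H3K9me3 peak and had H3K27ac peaks in 2 libraries. Next to chr3:4227315-4228044 in the ranking came chr9:3335160-3336111, with folds of 18.0, 16.6, 18.2 and 17.6, and chr16:3894799-3895953, with 16.8, 17.3, 17.2 and 17.5, and both had H3K27ac peaks in 4 libraries. The region chr5:4242369-4243157, with folds of 15.8, 16.9, 17.9 and 18.9, had no H3K27ac peak in any library. At chr19:5012035-5013079 H3K4me3 folds were 17.0, 16.8, 17.2 and 16.5 and H3K27ac folds 10.2 to 14.0. The region with the most bases under H3K4me3 peaks, chr11:3238837-3243190, had 4194, 4147, 4089 and 4035 bp covered at low folds of 3.77 to 4.44. For H3K27ac that was chr12:4406670-4409670, with 2970, 2698, 2968 and 2878 bp covered, and H3K4me3 peaks overlapped it in 4 libraries.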

How the data were processed

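Per the submitters' processing notes, fastp, BWA, SAMtools, Picard, MACS2 and featureCounts were used with build GRCm39. Their versions and settings, and any control library, were not given in the sources used here. The authors deposited 1 peak list per library, narrow peaks for H3K4me3 and H3K27ac and broad peaks for H3K9me3. Each deposited peak has a fold enrichment (a ratio over background) and a p-value and a q-value, both as −log10. The weakest deposited peaks had q-values of 0.05 (narrow) and 0.1 (broad), so weaker sites are not listed. These values were used only within a list. Columns were read as deposited, and the summit offset was not used.

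Peaks were counted by midpoint in the first 3 Mb (57 Mb over 19 chromosomes) and in the rest, from 6 Mb to the last base under any peak of the 12 lists (2346 Mb). Densities and median widths were compared within libraries by exact sign flips and between genotypes by exact permutation, two-sided, with Python 3.11.15, pandas 2.3.3 and SciPy 1.17.1. Width ratios and counts of genotype-specific regions were tested on simulated peak lists with known values. The density ratio was checked there only against counts from the same calculation, which could not reveal a miscount. The members, lists and rules were chosen with earlier results of these data known. Regions were named by rule: per mark, the 6 with the highest mean percentile of fold among those in all 4 libraries, the 4 with the most covered bases, up to 4 per genotype-specific set, places where the 3 marks meet, and the 3 densest and 3 least dense chromosomes. The text gives those first in each ranking. Chromosomes X and Y, the mitochondrial genome, unplaced sequences and a sequence named dm were left out of the comparisons. Alternatives covered the q-value limit, list length, window, chromosomes, single libraries and merging.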

Additional observations from a re-analysis of the deposited data

Results flagged for a closer look

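H3K27ac peaks of the first 3 Mb were wider than those of the rest in both del-cIDR libraries and narrower in both WT libraries. The mean log2 width ratio was 0.029 in del-cIDR and -0.023 in WT, and the result was flagged because the signs differed. The exact permutation test of that difference gave p = 0.333, the smallest that 2 libraries against 2 allow. The opposite signs were absent among peaks with a −log10 q of at least 5. These were narrower in the first 3 Mb in every library, at 792 and 721 bp in WT and 782 and 735.5 bp in del-cIDR. The rest gave 794.5, 749, 784 and 752 bp in the same order. Without chromosomes 7, 11 and 19 the mean log2 ratio over all libraries was -0.034.

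Peaks outside chromosomes 1 to 19 entered no comparison. Between 3 and 6 Mb of chromosome X, H3K9me3 had 32 to 124 peaks per library, a density 2.43 to 2.92 times that of the rest of X, while H3K4me3 had 2 to 4 and H3K27ac 1 to 4. On Y the same stretch held 5 to 24 H3K9me3 peaks. Unplaced sequences held 9 to 14 H3K4me3, 23 to 37 H3K27ac and 113 to 168 H3K9me3 peaks per library. The sequence named dm held 359 to 872 H3K4me3 peaks, 6 to 22 H3K27ac peaks and 6 to 12 H3K9me3 peaks, and what it is was not given in the sources used here. The mitochondrial genome held 5 to 6 H3K4me3, 4 to 6 H3K27ac and 4 to 6 H3K9me3 peaks.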

How the results depend on the processing

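Values are log2 ratios unless they count regions. Against the rest, the mean H3K9me3 density stayed higher in every alternative, from 0.59 (lists of equal length) to 1.52 (−log10 q of at least 5). The 1.52 rests on 37 to 51 strong peaks per library in the first 3 Mb. Of these, 22 to 24 lay in the first 100 kb, and the ratio of strong peaks without that stretch was not calculated. Against 6 to 9 Mb the H3K9me3 density was about equal, at 0.0045, and higher in 2 of 4 libraries (exact sign-flip p = 0.875). The H3K27ac density ratio ran from 0.045 to 0.48. H3K4me3 density turned to -0.22 without chromosomes 7, 11 and 19 and to -0.25 as the median over chromosomes, both chosen after seeing the data. Width against the rest turned for H3K4me3 to -0.016 (q limit), -0.0025 (lists of equal length) and -0.045 (without chromosomes 7, 11 and 19). For H3K27ac it turned to -0.024, -0.0081 and -0.034 in the same settings, to -0.0047 without chromosome 9 and to -0.017 against 6 to 9 Mb. For H3K9me3 it turned to 0.16 (q limit) and 0.019 (6 to 9 Mb). The genotype difference in share turned for H3K27ac to 0.082 (q limit) and 0.020 (equal lists), for H3K9me3 to -0.60 and -0.035, and for H3K4me3 to 0.018 with the window to 9 Mb. The H3K4me3 width difference turned to -0.0067 with equal lists. The H3K27ac width difference between genotypes kept its sign but ran from 0.0052 (q limit) to 0.24 (equal lists). The causes were not tested.

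For the counts of regions below, the share over all regions was not calculated under each setting. The number of regions also changes with the setting, so these counts cannot be read against the genome. Regions only in WT numbered 5 (q limit), 46 (window to 9 Mb) and 14 (without chromosomes 7, 11 and 19) for H3K27ac, 8 without those chromosomes for H3K4me3, and 1 (q limit), 54 (equal lists), 42 (window to 9 Mb) and 10 (50% of the region covered) for H3K9me3. Regions only in del-cIDR numbered 16 (H3K4me3), 136 (H3K27ac) and 190 (H3K9me3) with the window to 9 Mb, 50 for H3K27ac without chromosomes 7, 11 and 19, and 3 (q limit) and 148 (50% covered) for H3K9me3. Leaving out 1 library in turn, which lets 1 library stand for its genotype, gave 13 to 28 (H3K4me3), 122 to 324 (H3K27ac) and 107 to 423 (H3K9me3) regions only in del-cIDR, and 24 to 42, 41 to 158 and 37 to 399 only in WT. It moved the H3K4me3 share difference between -0.034 and 0.018, positive without WT replicate 2, and the H3K27ac width against the rest between -0.0071 and 0.015, negative without either del-cIDR library. The H3K9me3 width difference ran from 0.19 without WT replicate 1 to 0.93.

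Libraries share replicate numbers, but nothing in the labels pairs them. Deviations of same-numbered libraries over 19 chromosomes correlated at -0.48, -0.023 and -0.15 for H3K4me3, H3K27ac and H3K9me3. With a replicate block the differences in share (-0.0080, -0.029 and 0.040) and width (0.021, 0.11 and 0.56) were the same, with exact p of 0.5 to 1. Without read counts, depth is unknown and counting error could not be estimated.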
